A study of Mus musculus with 3 samples.

Results

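Tfrc and Gusb are 2 genes whose protein products work in endosomes and lysosomes, and both were read by probes printed 20 times on each array. They were taken from the 15 probes that the scanner files pair with a RefSeq accession, out of 60846 study probes. Tfrc was identified by accession NM_011638.3 and Gusb by NM_010368.1, each matched without its version to the reference gene table. The pair was selected on the array ratios below, with the ratios of all 15 named genes already known, so the values are a description and carry no test.

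The RNA came from primary dorsal root ganglion neurons, the sensory neurons whose cell bodies lie beside the spinal cord, taken from C57BL/6 mice of 5 to 9 days of age. They were grown for 5 days and then kept for 24 h with 100 µM 8-M-PDOT, which the labels call an agonist of the melatonin receptor MTR1B, with 1 mM melatonin, or with vehicle (1% ethanol in normal saline). Each condition had 1 single-colour array, so no value has a replicate check between cultures, and the SD given is the technical spread over the spots of an array. All 3 arrays shared 1 scan, per the file headers, and their place on the slide goes with the condition, so that the effects of place and treatment cannot be told apart. The labels do not say how many mice or cultures went into a sample. None of the 8 sensory neuron markers or the markers of glia, fibroblasts, macrophages and endothelium listed for this purpose is named in the files, so the cell type was not checked, and fewer cells of a type and less RNA per cell cannot be told apart.

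Tfrc encodes the transferrin receptor, which binds iron-loaded transferrin at the cell surface, carries it into acidic endosomes where the iron is released, and returns to the surface. Its mRNA is a textbook case of control by iron, since iron regulatory proteins bind and stabilise it when cellular iron is scarce. Gusb encodes beta-glucuronidase, a soluble hydrolase that is sorted to lysosomes by the mannose 6-phosphate route and removes glucuronic acid from glycosaminoglycan chains. Both genes are also widely used as reference genes in quantitative PCR.

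On the melatonin array, Tfrc and Gusb differed from vehicle in opposite directions. Tfrc signal was 2.26-fold lower than on the vehicle array, and Gusb signal was 2.53-fold higher. Relative to vehicle, Tfrc on the 8-M-PDOT array was 1.19-fold higher and Gusb was 1.58-fold higher, and each sign turned under at least 1 of the other scalings. In the scaling used here, Gusb on the 8-M-PDOT array lay about midway between melatonin and vehicle. For 8-M-PDOT against vehicle, neither gene passed the 2-fold threshold named in the series design. These folds come from the mean of the log2 spot ratios, after each array was scaled to its 75th percentile.

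Tfrc, the endosomal receptor, was bright on all 3 arrays, and its 19 spots without an outlier flag were well above background and unsaturated on each. Its processed signal had a lowest, median and highest spot of 38433, 42989 and 49425 intensity units on the 8-M-PDOT array. The same 3 values were 20914, 22082 and 24095 units with melatonin. For vehicle they were 49037, 52727 and 56288 units. The melatonin spots were therefore all dimmer than any spot on the other arrays, while the 8-M-PDOT and vehicle spots overlapped slightly before any scaling. The mean signal was 42989 ± 2826 units with 8-M-PDOT, 22138 ± 804 with melatonin and 52640 ± 2162 with vehicle (SD over 19 spots each).

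Gusb, the lysosomal hydrolase, gave a signal far above the local background of 21 to 22 units around its spots, and its unflagged spots were all well above background and unsaturated. The 17 unflagged spots had a lowest, median and highest processed signal of 421, 463 and 495 units with 8-M-PDOT. With melatonin these values were 982, 1012 and 1079 units. With vehicle they were 404, 416 and 445 units. The melatonin spots were all brighter than any spot of the other arrays, and the 8-M-PDOT and vehicle spots overlapped in these unscaled units. The mean signal was 459 ± 22.1 units with 8-M-PDOT, 1015 ± 21.6 with melatonin and 421 ± 13.5 with vehicle (SD over 17 spots each). The 15 negative-control probes, which measure signal without a target, averaged at most 21.9, 22.7 and 21.3 units on the 8-M-PDOT, melatonin and vehicle arrays.

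The arrays differed in their general brightness, which matters most for the 8-M-PDOT comparisons. The 75th percentile over study probes was 328 units for 8-M-PDOT, 454 for melatonin and 477 for vehicle. After division by this percentile, Tfrc had a log2 level of 7.03 ± 0.09 with 8-M-PDOT, 5.61 ± 0.05 with melatonin and 6.78 ± 0.06 with vehicle. For Gusb the scaled log2 levels were 0.48 ± 0.07, 1.16 ± 0.03 and -0.18 ± 0.05 on the 8-M-PDOT, melatonin and vehicle arrays. In these scaled units the Gusb spots of the 3 arrays separated completely, with a gap of 0.46 between the lowest 8-M-PDOT and the highest vehicle spot. Among the other genes named by accession, the scaled spots of Actb, B2m and Hprt also separated on the 3 arrays, so this was not particular to Gusb. The Tfrc spots of the 8-M-PDOT and vehicle arrays still overlapped, by 0.01.

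**Figure D1:**
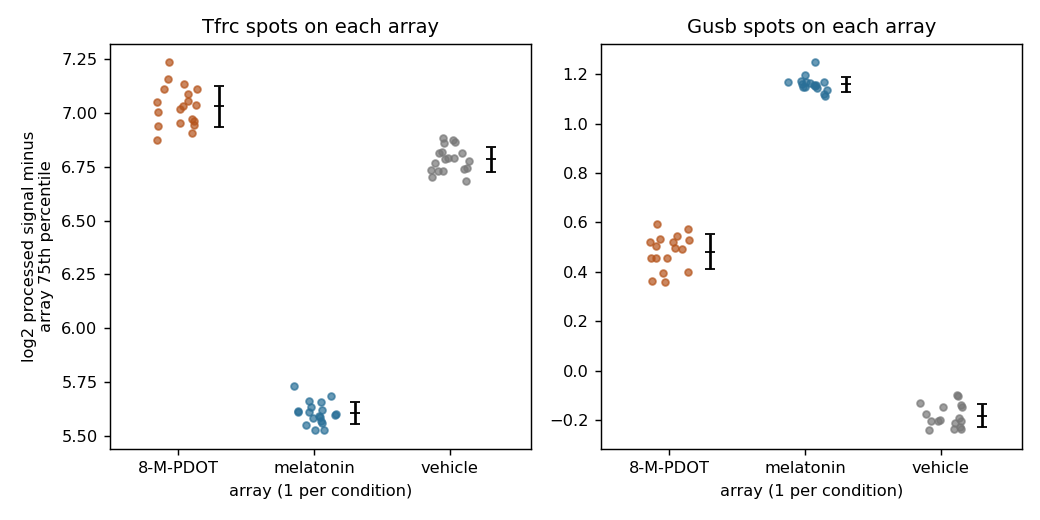
Scaled log2 processed signal (y axis, log2 units relative to the array's 75th percentile) of every unflagged spot of Tfrc (left) and Gusb (right) on the 8-M-PDOT, melatonin and vehicle arrays; the black mark and bar are the mean and SD over spots. The melatonin spots lie lowest for Tfrc (mean 5.61) and highest for Gusb (mean 1.16), and only the 8-M-PDOT and vehicle spots of Tfrc overlap.

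Comparing melatonin with vehicle described how the signals of these single arrays differed. The log2 ratio of Tfrc was -1.18 ± 0.05 (SD over 19 spots), with single spots between -1.29 and -1.11, so that 19 of 19 spots were past 2-fold in the downward direction. The log2 ratio of Gusb was 1.34 ± 0.06 (17 spots), with single spots between 1.25 and 1.45, and 17 of 17 spots were past 2-fold upward. Among all 46504 probes measured on these arrays, 5.14% were 2-fold or more below vehicle and 6.09% were 2-fold or more above it. Of the same probes, 3.59% were as low as Tfrc or lower, and 3.37% were as high as Gusb or higher. These shares, like those for the other comparisons, count probes of any brightness. The median over all study probes was 83.6 units with melatonin and 85.7 with vehicle, dimmer than either gene.

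Setting the genes against each other removes the scaling of the arrays, since any factor common to an array cancels. The change in Tfrc minus the change in Gusb was -2.52 ± 0.08 on the log2 scale for melatonin against vehicle (SD combined over the spots of both genes), a 5.74-fold shift of Tfrc relative to Gusb. It was -0.42 ± 0.13, or 1.34-fold, for 8-M-PDOT against vehicle. For 8-M-PDOT against melatonin it was 2.10 ± 0.11, or 4.30-fold. Relative to the lysosomal enzyme, the iron uptake receptor lay lower on the melatonin array than on the other arrays under any scaling that multiplies all signals of an array by 1 factor.

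For 8-M-PDOT against vehicle, Tfrc had a log2 ratio of 0.25 ± 0.10 (19 spots) and Gusb of 0.66 ± 0.08 (17 spots). Single spots ranged from 0.12 to 0.44 for Tfrc and from 0.51 to 0.81 for Gusb, and 0 spots of either gene reached 2-fold. This contrast was broad over the array, since 17.1% of the 47822 probes measured in it lay 2-fold or more above vehicle and 15.8% lay as far below. Within it, 38.1% of probes were as high as Tfrc or higher, and 24.6% as high as Gusb or higher. The sign of the small Tfrc difference rested on the scaling: the ratio was -0.29 with no scaling between arrays and 0.01 in the log2 value table that the authors deposited. With no scaling, the Gusb ratio was 0.12, and it was -0.87 when arrays were centred on the median level of the 13 other named genes.

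The treated arrays were also set side by side, at doses that differ (100 µM 8-M-PDOT and 1 mM melatonin). Tfrc had a log2 ratio of 1.43 ± 0.08 for 8-M-PDOT against melatonin, a 2.69-fold higher signal, with single spots between 1.31 and 1.59. Without scaling it was 0.96, just short of 2-fold. Gusb had a log2 ratio of -0.68 ± 0.07, a 1.60-fold lower signal on the 8-M-PDOT array, with single spots between -0.79 and -0.57. Without scaling the Gusb ratio was -1.15, which is past 2-fold. Of 47798 measured probes, 15.3% had a signal 2-fold or more above that of melatonin and 13.6% one as far below it. The share as high as Tfrc or higher was 9.53%, and 20.8% were as low as Gusb or lower.

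**Figure D2:**
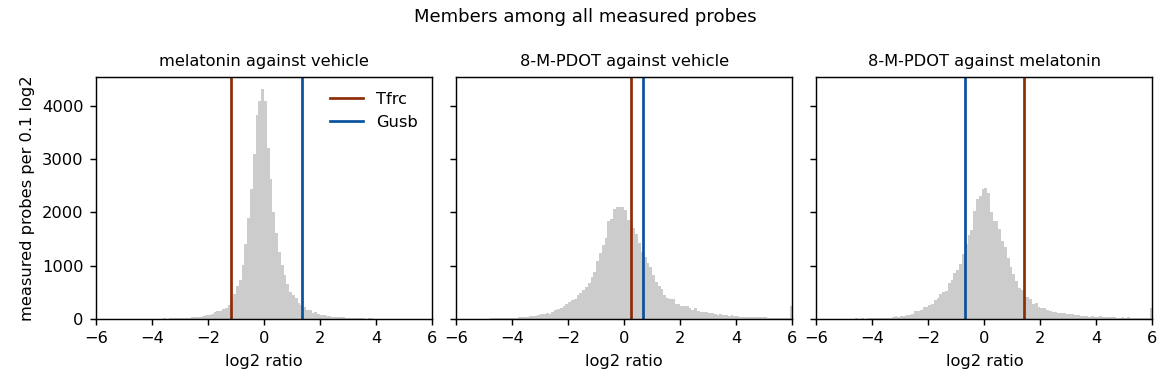
Number of measured probes (y axis) in bins of the log2 ratio (x axis, bins of 0.1) for the 3 comparisons, with the ratios of Tfrc and Gusb as vertical lines; the outermost bars hold all probes beyond the axis. For melatonin against vehicle the lines lie in the opposite tails (-1.18 and 1.34), and for 8-M-PDOT against vehicle both lie in the body of a wider distribution (0.25 and 0.66).

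The spots of each gene are spread over the array, so the ratios could be read separately in its upper and lower rows. Tfrc had 7 unflagged spots in the upper rows and 12 in the lower rows. In the upper rows its mean signal was 43697 ± 2038 units with 8-M-PDOT, 22650 ± 772 with melatonin and 54232 ± 1676 with vehicle. In the lower rows it was 42576 ± 3210, 21840 ± 684 and 51711 ± 1886 units on the 8-M-PDOT, melatonin and vehicle arrays. The melatonin against vehicle log2 ratio of Tfrc was -1.19 in the upper and -1.17 in the lower rows, so the position on the array hardly moved it.

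Gusb had 11 unflagged spots in the upper and 6 in the lower rows. Its mean signal in the upper rows was 466 ± 20.5 units with 8-M-PDOT, 1012 ± 15.4 with melatonin and 424 ± 14.9 with vehicle. In the lower rows it was 445 ± 19.9, 1021 ± 30.8 and 415 ± 9.15 units on the 8-M-PDOT, melatonin and vehicle arrays. The melatonin against vehicle log2 ratio was 1.33 and 1.37 in the upper and lower rows. The spots left out for an outlier flag, 1 of Tfrc and 3 of Gusb, changed little when they were kept, giving -1.19 for Tfrc and 1.33 for Gusb. The Tfrc spot that was left out read 44178 units with 8-M-PDOT, 21716 with melatonin and 64171 with vehicle, where it carried the flag.

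Among the 15 genes named by accession, Tfrc had the lowest log2 ratio for melatonin against vehicle. For 8-M-PDOT against melatonin, Tfrc (1.43 ± 0.08) and Actb (1.42 ± 0.07) were level at the top, within the SD over spots. In that contrast the 13 genes other than the pair ranged from -2.30 to 1.42, and 5 of the 13 passed 2-fold. Gusb had rank 2 from the top for melatonin against vehicle, after the antigen presentation gene B2m at 2.57. The 13 genes other than the pair ranged from -0.67 to 2.57 in that comparison, with a median of -0.11, and 1 of the 13 passed 2-fold. For 8-M-PDOT against vehicle, Tfrc had rank 6 and Gusb rank 4 from the top, the other 13 ranged from -2.21 to 2.86, and 5 of the 13 passed 2-fold. The SD of these ratios over spots had a median of 0.06 over the 15 genes in the melatonin comparison, close to those of Tfrc (0.05) and Gusb (0.06).

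**Figure D3:**
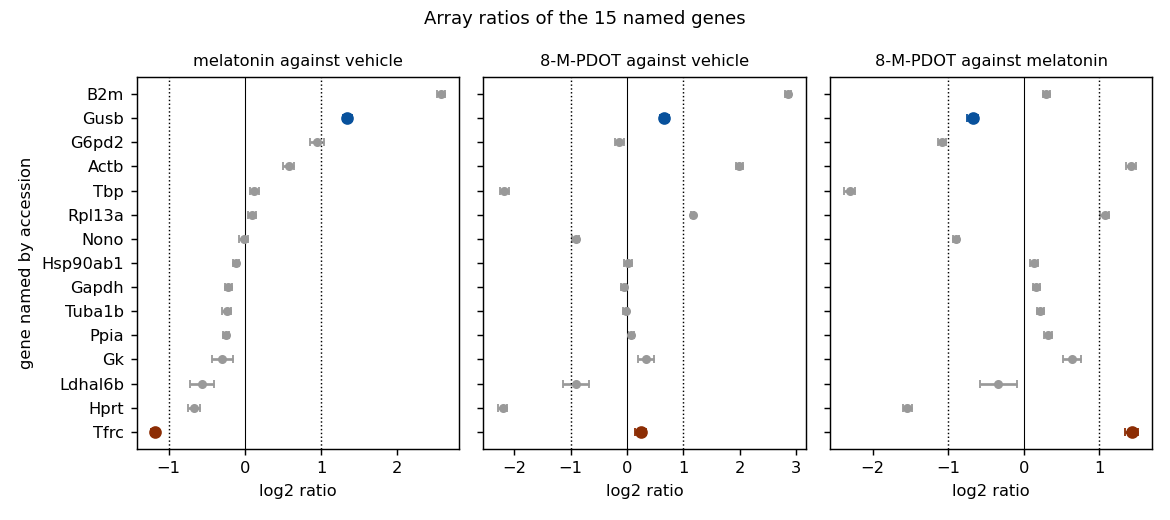
Log2 ratio (x axis) of the 15 genes named by accession (y axis, sorted by melatonin against vehicle) in the 3 comparisons; points are means and bars the SD over spots, with Tfrc in brown, Gusb in blue, other genes in grey and dotted lines at 2-fold. Tfrc is lowest for melatonin against vehicle (-1.18), and for 8-M-PDOT against melatonin it is level at the top with Actb (1.43 and 1.42).

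Likeness of pattern was measured as the Euclidean distance between the scaled log2 levels on the 3 arrays, each gene centred on its own mean. With 3 arrays and 15 genes this only orders the genes named in the files. Centred on its mean, Tfrc stood at 0.56 with 8-M-PDOT, -0.87 with melatonin and 0.31 with vehicle. Gk (glycerol kinase) was nearest to it at a distance of 0.69, followed by Ppia (cyclophilin A) at 0.84 and Tuba1b (alpha-tubulin) at 0.90. Gk also had its lowest level on the melatonin array (-0.31), beside 0.33 with 8-M-PDOT and -0.01 with vehicle. Ppia and Tuba1b were lowest on that array too but varied little, with centred levels between -0.19 and 0.13. B2m was the farthest from Tfrc, at 2.72.

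Gusb had centred levels of -0.0046 with 8-M-PDOT, 0.67 with melatonin and -0.67 with vehicle. The nearest gene was G6pd2, at 0.57, which derives from the gene of the pentose phosphate enzyme glucose-6-phosphate dehydrogenase and is near-identical to it, so that its signal is uncertain. It too had its highest level on the melatonin array, 0.67, beside -0.41 with 8-M-PDOT and -0.27 with vehicle. The next were Hsp90ab1, a chaperone gene, at 1.03 and Gapdh, of glycolysis, at 1.10, whose centred levels lay between -0.13 and 0.09. Hprt, of purine salvage, was the farthest at 2.09. The distance between Tfrc and Gusb was 1.91, which placed each near the far end of the other's list.

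Other genes of the same pathways could not be followed on these arrays. Of 27 lysosomal enzyme genes, Gusb was the only member that the files name, and of 14 genes of iron uptake and storage, Tfrc was the only such member. None of the 13 genes of the lysosomal membrane and acidification, the 3 regulators of lysosomal genes or the 8 genes of the recycling endosome was named. The data therefore give 1 gene for each organelle, and no count over a pathway.

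The ratios were recomputed under 12 further processing choices. For melatonin against vehicle, Tfrc was past 2-fold in the downward direction in 13 of 13 settings, the one described above included, with log2 ratios from -1.75 to -1.03. Gusb was past 2-fold upward in 12 of 13, with ratios from 0.77 to 1.46. For 8-M-PDOT against melatonin, Tfrc was higher in 13 of 13 settings (0.46 to 1.43) and past 2-fold in 11. Gusb was lower in 13 of 13 settings of that comparison (-1.64 to -0.60) and past 2-fold in 2. The 8-M-PDOT against vehicle ratio of Tfrc was above 0 in 11 of 13 settings (-1.29 to 0.27) and that of Gusb in 12 (-0.87 to 0.70). Many of these settings share the same spot readings and several only shift all ratios by a constant, so they are not independent checks.

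The lowest of these values all came from centring each array on the median level of the 13 other named genes. That median was the level of Rpl13a on the 8-M-PDOT array and of Actb on the melatonin and vehicle arrays. Both genes were past 2-fold upward for 8-M-PDOT against vehicle (log2 ratios of 1.16 for Rpl13a and 2.00 for Actb). Centring on the median ratio of the same 13 genes, added after seeing the data, gave -1.06 for Tfrc and 1.46 for Gusb in melatonin against vehicle, and 0.27 and 0.69 in 8-M-PDOT against vehicle. In the authors' deposited log2 table, Tfrc stood at 15.50 for 8-M-PDOT, 14.44 for melatonin and 15.49 for vehicle. Gusb stood there at 9.20, 9.86 and 8.53 on the 8-M-PDOT, melatonin and vehicle arrays.

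**Figure D4:**
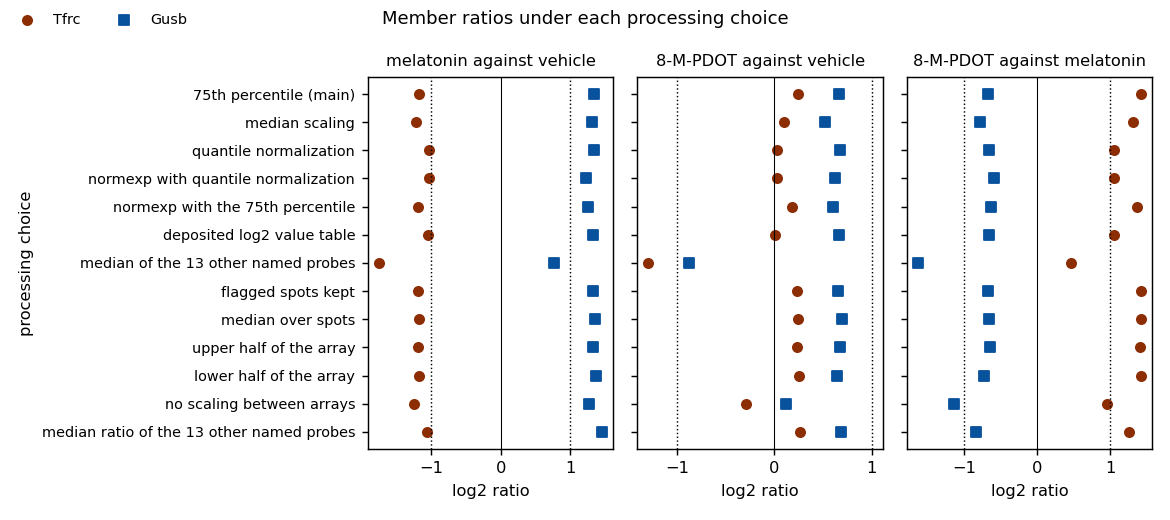
Log2 ratio (x axis) of Tfrc (brown circles) and Gusb (blue squares) under each processing choice (y axis) in the 3 comparisons, with dotted lines at 2-fold. For melatonin against vehicle, Tfrc stays left of the line at -1 in all 13 settings (-1.75 to -1.03), while for 8-M-PDOT against vehicle the Tfrc ratio crosses 0 (-1.29 to 0.27).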

How the data were processed

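Each scanner file deposited by the authors gives the intensity of every spot and of its local background, its place and probe name, and other columns such as flags of 0 or 1. The submitters' processing notes name Agilent Feature Extraction 11.0.1.1. The deposited value table is in log2 units; how it was normalized was not stated. Over brighter probes (mean log2 signal above 8) it lay within a median of 0.000547 of the processed signals after quantile normalization, on each array. Control spots and the 15 negative-control probes were dropped, as was any spot flagged as an outlier on 1 or more arrays, log2 processed signals were averaged over spots, and each array's 75th percentile was subtracted. A probe counted as measured if either array of a comparison had it well above background, and a dim value was set no lower than the array's weakest probe that passed this mark (14.4 units for 8-M-PDOT, 15.7 for melatonin and 19.3 for vehicle). With 1 array per condition there is no test and no p-value, and precision is limited by the number of arrays. The random variance model and paired t-test of the series design could not be run. Alternatives used limma 3.58.1 in R 4.3.3 (normexp, offset 50, on the median spot signal); the median stood in for the planned mean spot signal, which is not used here. The step that counts probes past 2-fold was run on simulated arrays, with shifts added only to probes well above background. That run does not cover dim probes and lends no support to the counts of the real arrays. Members, lists and rules were chosen with earlier results of these data known. Named genes are the pair, the 3 nearest and the farthest of the other named genes, and listed pathway genes. Rpl13a and Actb were further named after their values were seen. B2m and Hprt are the farthest genes, and their mentions outside the distances were also chosen after their values were seen. The array grid names the mm9 build and the gene table GRCm38.p6, so no coordinates are given.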

Additional observations from a re-analysis of the deposited data

How the results depend on the processing

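The choices of spots (flagged spots kept, median over spots, upper or lower rows) left all 6 ratios of Tfrc and Gusb within the SD over spots. Of 72 alternative ratios, 40 stayed within it and 32 moved further, and no ratio that was past 2-fold under 75th percentile scaling changed sign. The 2 settings without scaling and with the median ratio of the 13 other named genes were chosen after seeing the data. No paired analysis was possible because there is a single array per condition, and leaving out an array was not run for the same reason.

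Ratios are given below for melatonin against vehicle, 8-M-PDOT against vehicle and 8-M-PDOT against melatonin, in that order, where they moved. Median scaling gave Tfrc 0.10 and 1.32 and Gusb 0.52 and -0.78 in the 2 comparisons with 8-M-PDOT. Quantile normalization gave Tfrc -1.03, 0.025 and 1.06. Normexp with quantile normalization gave Tfrc -1.03, 0.024 and 1.06, and Gusb 1.22 (melatonin against vehicle) and -0.60 (8-M-PDOT against melatonin). Normexp with the 75th percentile gave Gusb 1.24 (melatonin against vehicle). The deposited table gave Tfrc -1.05, 0.011 and 1.06. The median level of the 13 other named genes gave Tfrc -1.75, -1.29 and 0.46 and Gusb 0.77, -0.87 and -1.64. No scaling gave Tfrc -1.25, -0.29 and 0.96 and Gusb 1.27, 0.12 and -1.15. The median ratio of those 13 genes gave Tfrc -1.06 and 1.26 and Gusb 1.46 and -0.84 (melatonin against vehicle and 8-M-PDOT against melatonin). For 8-M-PDOT against vehicle these scalings moved the median ratio of all probes by -0.14 (median scaling), -0.17 (quantile), -0.14 (normexp with quantile), 0.17 (normexp with the 75th percentile), -0.11 (deposited table), -1.54 (median level) and -0.54 (no scaling). For melatonin against vehicle the median level moved it by -0.58 and the median ratio by 0.11.

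Counts of probes past 2-fold moved by over 1.5 times as follows, with probes above the threshold before probes below it. In melatonin against vehicle (2833 and 2390) they were 1362 and 1114 with normexp and quantile normalization, 1371 and 1370 with normexp and the 75th percentile, and 4380 and 3719 without a filter on dim probes. For 8-M-PDOT against vehicle (8171 and 7545) they were 5108 and 4896 with normexp and quantile normalization, and 4973 lower with normexp and the 75th percentile. For 8-M-PDOT against melatonin (7327 and 6498) they were 4125 higher with normexp and quantile normalization, and 4576 and 4001 with normexp and the 75th percentile. The cause was not tested. Median scaling put 7027 probes higher and 9118 lower for 8-M-PDOT against vehicle, and 6431 and 7490 for 8-M-PDOT against melatonin. The unflagged spots of the pair were all well above background on the 3 arrays. For melatonin against vehicle, the Gusb ratio was nevertheless 1.34 in the main processing and 1.24 with normexp and the 75th percentile.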
